A study of Mus musculus with 10 samples.

Results

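Transcription factors that are known to specify or mark tuft cells were examined in sorted epithelial cells of the inflamed mouse pancreas. The members are 5 genes chosen by name, Pou2f3, Gfi1b, Spib, Sox4 and Runx1, and all 5 were found among the 12160 genes with expression values. Gene expression had been measured by Smart-Seq2, a method that amplifies full-length cDNA from small numbers of cells, in 10 libraries of 100 sorted cells each. The 5 tuft cell libraries held Cd45-neg; EpCAM+; Siglec f+ cells, and the 5 non-tuft libraries held Cd45-neg; EpCAM+; Siglec f-neg epithelial cells. All donors were wild type male mice with pancreatitis, named CD-1 in the study's methods and given as both Mixed and CD1 in the sample records, and both groups were sorted from 5 such mice, with each tuft cell library from an individual mouse. All of them had received 4 cycles of caerulein, a cholecystokinin ortholog that injures acinar cells, at 250 μg/kg, followed by 0 to 2 days of recovery, so neither group represents the uninjured pancreas. Tuft cells were defined by surface Siglec F, and the non-tuft libraries were a mixture of every other epithelial cell in the gate.

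Tuft cells are rare chemosensory epithelial cells with a tuft of microvilli, found in the gut, airway and other organs and formed in the pancreas upon injury. Pou2f3, an octamer-binding POU homeodomain factor, is required for tuft cells in several organs. Gfi1b is a zinc finger repressor of red cell and platelet development, Spib is an ETS factor of B cells, plasmacytoid dendritic cells and intestinal M cells, Runx1 is the runt domain factor of definitive blood formation, and Sox4 is an HMG box factor of immature and progenitor cells that has been tied to tuft cell formation in the gut. The question addressed here is which of these factors were higher in pancreatitis tuft cells than in the epithelium around them, and whether their relatives and partners differed as well.

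Pou2f3, Gfi1b and Spib rose in tuft cells by 20.2-fold, 31.8-fold and 30.6-fold. In each case the lowest tuft cell library lay above the highest non-tuft library, which held for 6.31% of all listed genes. The size of these folds depends on the constant added before the logarithm, because non-tuft libraries lie at the floor. The log2 fold changes were 2.31, 2.37 and 3.16 with 10 added and 5.89, 7.47 and 6.34 with 0.1 added, and all 3 genes were called in both cases. Runx1 had a mean 1.97-fold higher and Sox4 a mean 2.25-fold lower in tuft cells, and neither difference passed the test over all genes. A gene was called where limma's moderated test gave an adjusted p below 0.05 and the group means differed more than 4-fold. By this criterion 3 of the 5 factors were called higher, where 4.32% of all listed genes were called higher and 3.99% lower. When the fold of 4 was itself tested, with limma's treat, Gfi1b passed (adjusted p = 0.0106), whereas Pou2f3 (adjusted p = 0.127) and Spib (adjusted p = 0.171) did not. Values are given throughout as log2(RPKM + 1) after quantile normalization, where RPKM scales reads to transcript length and to the reads of the library. The lowest value of a library, its floor, was 0.17 in non-tuft library 2 and 0 in every other library. In bulk libraries such as these, a lower share of expressing cells and less RNA per cell cannot be told apart.

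**Figure D1:**
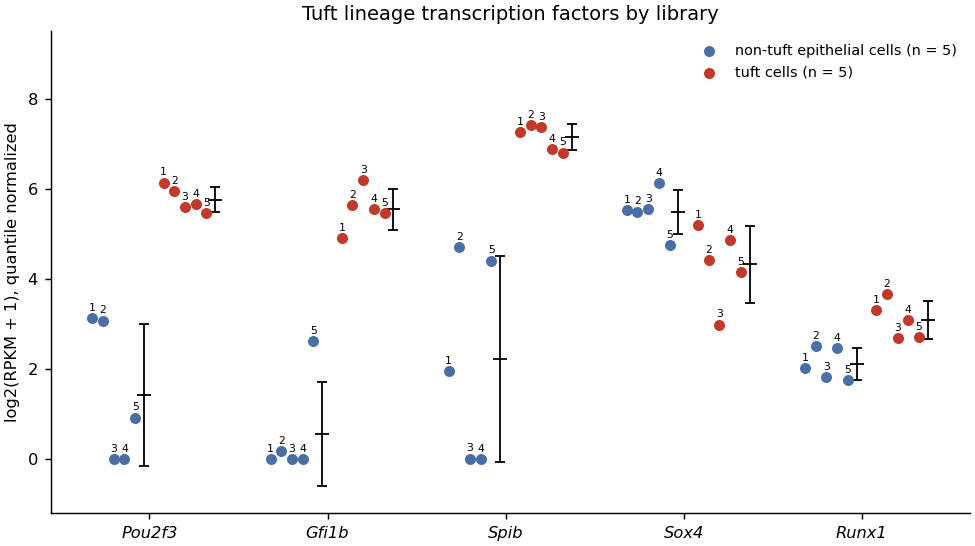
The plot of the factors by library gives the log2(RPKM + 1) value (vertical axis) of each factor in the 5 non-tuft (blue) and 5 tuft cell (red) libraries, with library numbers above the points and the mean ± SD as black bars beside them. Pou2f3, Gfi1b and Spib lie between 4.91 and 7.41 in tuft cells and no higher than 4.71 in non-tuft libraries, Runx1 is separated by a narrow gap and Sox4 overlaps.

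Pou2f3 (chromosome 9, 42932022 to 43018452 on the minus strand of NCBIM37, 14 exon blocks) is the factor on which tuft cells depend. Its log2 value was 6.14, 5.95, 5.59, 5.66 and 5.45 in tuft cell libraries 1 to 5, and 3.13, 3.07, 0, 0 and 0.92 in non-tuft libraries 1 to 5. The tuft cell libraries lay close together, whereas non-tuft libraries 1 and 2 held an intermediate level and libraries 3 and 4 were at the floor. The means were 5.76 ± 0.28 (SD, n = 5) and 1.42 ± 1.58 (SD, n = 5). The log2 fold change was 4.33 (SE 0.65, 95% interval 2.94 to 5.73), with an adjusted p of 8.66e-04 from limma. An exact two-sided permutation test over the 252 ways of dividing the libraries gave p = 0.00794, the smallest value it can give. The permutation treated the libraries as independent, although both groups came from 5 mice. No version that kept the libraries of a mouse together was run, here or for the permutation tests below. Within the tuft cell libraries Pou2f3 was also steady, as 13.9% of the 721 genes within 0.5 of its mean level had a smaller SD, and the median SD of those genes was 0.49.

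Gfi1b (chromosome 2, 28464970 to 28477502 on the minus strand of NCBIM37, 7 exon blocks) had log2 values of 4.91, 5.64, 6.19, 5.54 and 5.46 in tuft cell libraries 1 to 5. Non-tuft libraries 1 to 4 were at the floor for this gene, and library 5 was at 2.61. Gfi1b was therefore present in every tuft cell library and listed above the floor in only 1 non-tuft library. The means were 5.55 ± 0.46 (SD, n = 5) and 0.56 ± 1.15 (SD, n = 5), a log2 fold change of 4.99 (SE 0.54, 95% interval 3.83 to 6.16, limma adjusted p = 7.21e-05). The exact two-sided permutation test gave p = 0.00794. As Gfi1b and Spib were both called higher, the 250 bases upstream of their starts were read from the RefSeq promoters of GRCm38.p6 and searched, together with the next 50 bases, on both strands. The letters searched were ATGCAAA for octamer-binding POU factors, AAATCA for GFI factors, GAGGAA for Spib-type ETS factors, TGTGGT for RUNX factors and AACAAAG for SOX factors. No Pou2f3 promoter was analysed. Sequences are printed 5′ to 3′ in the direction of transcription with each match in capitals, positions are counted from 0 at the first transcribed base, and a match is a description of letters and not a binding site. The upstream stretch of Gfi1b, chr2:28621983-28622232 on the minus strand, holds a match to AAATCA from -34 to -29.
Gfi1b: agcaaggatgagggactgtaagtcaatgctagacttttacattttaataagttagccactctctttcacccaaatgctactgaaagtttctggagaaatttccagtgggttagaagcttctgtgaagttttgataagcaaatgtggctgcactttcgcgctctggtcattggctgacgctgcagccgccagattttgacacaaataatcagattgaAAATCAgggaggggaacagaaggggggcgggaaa

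Spib (chromosome 7, 51781365 to 51787441 on the minus strand of NCBIM37, 6 exon blocks) had the highest level of the 5 factors in tuft cells. Its log2 value was 7.26, 7.41, 7.38, 6.89 and 6.80 in tuft cell libraries 1 to 5, and 1.95, 4.71, 0.0078, 0 and 4.41 in non-tuft libraries 1 to 5. Non-tuft libraries 2 and 5 were clearly above the floor, library 1 was intermediate, and libraries 3 and 4 were at or next to it. The means were 7.15 ± 0.28 (SD, n = 5) and 2.21 ± 2.28 (SD, n = 5), a log2 fold change of 4.93 (SE 0.87, 95% interval 3.06 to 6.81, limma adjusted p = 0.00248). The exact two-sided permutation test gave p = 0.00794. The spread of Spib across the non-tuft libraries was among the widest for its level, since 96.4% of 2518 genes within 0.5 of its mean had a smaller SD. Its upstream stretch, chr7:44532072-44532321 on the minus strand, is shown as the counterpart of Gfi1b, and none of the 5 motifs was found in it or in the 50 bases that follow.
Spib: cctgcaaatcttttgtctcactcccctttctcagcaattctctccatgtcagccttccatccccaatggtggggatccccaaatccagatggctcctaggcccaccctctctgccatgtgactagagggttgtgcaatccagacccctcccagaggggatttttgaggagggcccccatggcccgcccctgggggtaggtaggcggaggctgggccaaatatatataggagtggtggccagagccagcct

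Runx1 (chromosome 16, 92601712 to 92826311 on the minus strand of NCBIM37, 9 exon blocks) had log2 values of 3.31, 3.66, 2.68, 3.08 and 2.70 in tuft cell libraries 1 to 5. In non-tuft libraries 1 to 5 it was at 2.01, 2.50, 1.81, 2.45 and 1.75. The groups did not overlap, although the gap between tuft cell library 3 and non-tuft library 2 was small and Runx1 was above the floor in all 10 libraries. Every tuft cell library lay above every non-tuft library for 6.31% of all listed genes. The means were 3.08 ± 0.42 (SD, n = 5) and 2.11 ± 0.35 (SD, n = 5), a log2 fold change of 0.98 (SE 0.37, 95% interval 0.17 to 1.78). The adjusted p of 0.119 from limma missed the threshold, and the exact two-sided permutation test, which is not adjusted over genes, gave p = 0.00794. When each library was centred on its ribosomal protein genes, the difference was 1.80 with an adjusted p of 0.00603 (limma), while the median of all genes moved from 0.02 to 0.84. Runx1 was even among the non-tuft libraries, as 2.53% of 2568 genes of like level had a smaller SD. It overlaps Gm16801, a long noncoding RNA gene on the other strand, and reads of the pair cannot be told apart without strand. Of its 2 RefSeq starts, the downstream one is shown because the octamer letters lie in it, from -71 to -65, followed by a match to the ETS letters on the other strand from -46 to -41 (chr16:92697330-92697579, minus strand of GRCm38.p6).
Runx1: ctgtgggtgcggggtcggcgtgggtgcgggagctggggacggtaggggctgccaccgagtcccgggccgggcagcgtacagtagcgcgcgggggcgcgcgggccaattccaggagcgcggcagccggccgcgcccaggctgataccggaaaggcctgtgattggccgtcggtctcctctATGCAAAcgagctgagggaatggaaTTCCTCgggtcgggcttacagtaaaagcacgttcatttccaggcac

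Sox4 (chromosome 13, 29040788 to 29045582 on the minus strand of NCBIM37) is a gene of a single exon and was the only factor with a lower mean in tuft cells. Its log2 value was 5.19, 4.42, 2.98, 4.86 and 4.16 in tuft cell libraries 1 to 5, and 5.52, 5.49, 5.56, 6.12 and 4.74 in non-tuft libraries 1 to 5. Tuft cell libraries 2, 3 and 5 lay below all non-tuft libraries, and libraries 1 and 4 lay within their range. Among all listed genes, 5.12% had every tuft cell library below every non-tuft library, which Sox4 did not. The means were 4.32 ± 0.85 (SD, n = 5) and 5.49 ± 0.49 (SD, n = 5), a log2 fold change of -1.17 (SE 0.47, 95% interval -2.18 to -0.15). The adjusted p was 0.137 (limma), so the difference did not pass the test over all genes, and the unadjusted exact two-sided permutation test gave p = 0.0238. After centring on ribosomal protein genes the Sox4 difference was -0.34. Sox4 overlaps the long noncoding RNA gene Gm17419 on the plus strand, whose reads cannot be told apart from its own.

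The order of the 5 factors differed between the groups. In tuft cells Spib stood above Pou2f3 in 5 of 5 libraries, by 1.39 ± 0.26 (SD, n = 5) on the log2(RPKM + 1) scale, and their ranges did not overlap. Pou2f3 and Gfi1b did not differ beyond their spread, as Pou2f3 was the higher in 3 of 5 libraries. Gfi1b was above Sox4 in 4 of 5 libraries and Sox4 above Runx1 in 5 of 5, with overlapping ranges in both cases. Among all listed genes, the median percentile over the tuft cell libraries was 96.8 for Spib, 89.9 for Pou2f3, 89.1 for Gfi1b, 77.9 for Sox4 and 57.0 for Runx1. In the non-tuft libraries Sox4 came first, at a median percentile of 89.0, and stood above Spib in 5 of 5 libraries. Spib, Runx1, Pou2f3 and Gfi1b followed with ranges that overlapped from each to the next.

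Tuft cell markers were then set beside the factors in the non-tuft libraries, because these markers varied among the non-tuft libraries. Of 29 listed tuft markers, 28 were called higher in tuft cells, where 4.32% of all listed genes were. The summed linear level of the markers ran from 1249 to 3613 in the non-tuft and from 23570 to 71379 in the tuft cell libraries. In non-tuft libraries 3 and 4, Cd24a was at log2 values of 10.4 and 8.99 and Krt18 at 9.67 and 9.18. The next highest tuft marker there was Rgs2, at 5.57 and 6.66. The sums of non-tuft libraries 3 and 4 thus describe mainly Cd24a and Krt18, and say little about the other tuft markers. Siglecf, the gene of the sorted surface protein, had a value above the floor in non-tuft library 2 alone, at 1.61. For the 25 tuft markers whose tuft cell mean reached a log2 value of 4, the median linear level in non-tuft libraries 1 to 5 was 3.24%, 5.13%, 4.19e-04%, 0.187% and 10.9% of the tuft cell mean. Keeping markers by their tuft cell level favours low percentages, so only the pattern over the non-tuft libraries is compared. Pou2f3 stood at 14.4%, 13.5%, 0%, 0% and 1.64% of its own tuft cell mean in the same libraries. Spib stood at 2.00%, 17.5%, 0.0038%, 0% and 14.1%, and Gfi1b at 10.7% in library 5 only. All of these factors were at or next to the floor in libraries 3 and 4, where the marker median was lowest, but Pou2f3 was highest in libraries 1 and 2 and Gfi1b in library 5. Runx1 ranged from 30.5% to 58.5% of its tuft cell mean and Sox4 from 120% to 319%, including libraries 3 and 4. The part of these marker levels in the fold changes was not tested. With non-tuft library 5 left out, the log2 fold changes of Pou2f3, Gfi1b and Spib were 4.21, 5.51 and 5.48, and with non-tuft library 2 left out they were 4.74, 4.90 and 5.56.

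**Figure D2:**
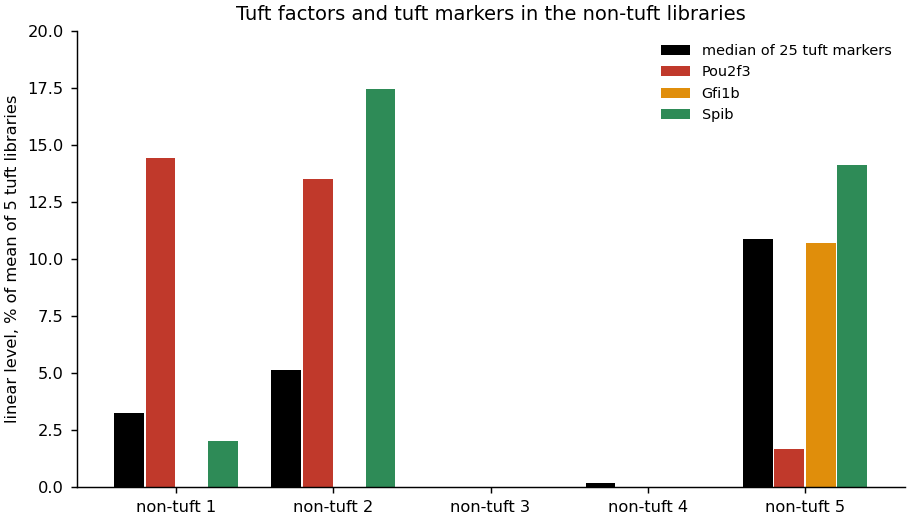
The bar plot gives the linear level in each non-tuft library (horizontal axis) as a percentage of the mean of the 5 tuft cell libraries (vertical axis), for the median of 25 tuft markers (black), Pou2f3 (red), Gfi1b (orange) and Spib (green). Libraries 3 and 4 are near 0 for all of them, and the factors differ in which of libraries 1, 2 and 5 is highest, with Spib reaching 17.5% in library 2 and Pou2f3 14.4% in library 1.

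Among other cell types, the acinar markers followed the sort. Of 21 listed acinar markers 17 were called lower in tuft cells, and their summed level ran from 1687 to 94590 in tuft cell and from 105472 to 149522 in non-tuft libraries. Leukocyte markers were of interest because Gfi1b, Spib and Runx1 are also factors of blood cells. Their sums overlapped between tuft cell (20.5 to 98.4) and non-tuft libraries (7.65 to 216), but these sums include Cd14. Cd14 was at 4.85, 2.72, 5.79, 7.08 and 5.79 in non-tuft libraries 1 to 5. In tuft cell libraries 1 to 5 it was at 3.24, 1.24, 3.90, 6.06 and 2.50. In non-tuft libraries 1, 2 and 4 it was the higher of only 2 leukocyte markers above the floor. The overlap therefore says little about the other leukocyte genes. Of the 30 leukocyte markers 13 were listed. Only Ptprc, which encodes Cd45, was called higher among them, at 3.97, 4.33, 2.74, 2.74 and 3.45 in tuft cell libraries 1 to 5 against at most 1.93 in non-tuft libraries, a log2 fold change of 2.72 (limma adjusted p = 0.00292). The B cell receptor gene Cd79b was at 4.38, 0, 3.15, 3.95 and 3.85 in tuft cell libraries 1 to 5, and among non-tuft libraries it was detected in library 5 alone, at 6.22 (log2 fold change 1.79, limma adjusted p = 0.390). Its partner Cd79a was at 2.35, 0, 0, 3.38 and 3.56 in tuft cell libraries 1 to 5 and at 5.23 in non-tuft library 5 alone (0.78, limma adjusted p = 0.697). B cell genes were thus detected in both groups, and highest in non-tuft library 5. The T cell genes Cd3d and Cd3g and the myeloid genes Csf1r and Tyrobp were each at the floor in 4 of 5 tuft cell libraries and in 3 or 4 of 5 non-tuft libraries, and these 4 and Cd79a were named after their values were seen. Cd45-negative cells had been sorted in both groups, and the part of Ptprc-expressing or B cells in the levels of Spib and the other factors was not tested. Of 15 eosinophil and mast cell markers only Kit was listed, called higher at 4.05-fold, and of 16 red cell and platelet markers Pf4 and Gp1bb were listed and neither was called. Of 12 ductal markers 1 was called higher and 3 lower, and of 16 islet markers 5 were lower. Of 11 listed fibroblast and endothelial markers Tek and Esam were higher, and of 14 dissociation response genes Jun and Ier3 were lower. All counts of calls in this paragraph stand beside 4.32% of all listed genes called higher and 3.99% called lower. In tuft cell libraries 1, 2 and 4, Tek and Esam were the only 2 of the 11 fibroblast and endothelial markers above the floor. Library 3 had 3 above it and library 5 all 11. The fibroblast and endothelial sum of tuft cell libraries 1 to 4 thus describes few genes and not the list as a whole. The sum was highest in library 5 of both groups, at 803 against 0 to 64.0 in the other non-tuft libraries and at 346 against 31.4 to 93.0 in the other tuft cell libraries. Non-tuft library 5 is also the one with Gfi1b above the floor, and without it the Gfi1b log2 fold change was 5.51.

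The share that each factor held of its own family was computed from linear levels summed over the listed family members, since RPKM is scaled to length and can be compared between genes. Pou2f3 made up 72.7%, 88.9%, 78.9%, 82.1% and 82.7% of the POU level in tuft cell libraries 1 to 5, and 33.2%, 36.4%, 0%, 0% and 15.4% in non-tuft libraries 1 to 5. The other listed POU genes were Pou2f1, Pou4f1 and Pou6f1, and Pou2f1, the ubiquitous relative that binds the same octamer, led the family in all 5 non-tuft libraries. The share was 81.1% ± 5.93 (SD, n = 5) in tuft cells and 17.0% ± 17.4 (SD, n = 5) in non-tuft cells, a difference of 64.1 percentage points.

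Spib held 29.5%, 35.0%, 27.1%, 30.0% and 21.0% of the level of 18 listed ETS genes in tuft cell libraries 1 to 5, and 1.53%, 10.8%, 0.0020%, 0% and 7.20% in non-tuft libraries 1 to 5. It led the family in tuft cell libraries 2 and 4, and the epithelial ETS factors Ehf and Elf3 led in the other 8 libraries. The difference was 24.6 percentage points. Sox4 was second to Sox9, a factor of ductal and progenitor cells, among 6 listed SOX genes in all 10 libraries. Its share was 12.2%, 9.48%, 2.35%, 11.0% and 8.48% in tuft cell libraries 1 to 5, and 22.6%, 22.3%, 17.4%, 23.2% and 22.1% in non-tuft libraries 1 to 5, a difference of -12.8 percentage points. For each of the 3 shares the groups did not overlap, and the exact two-sided permutation test gave p = 0.00794, with the same value after adjustment over the 3 shares. Here too the libraries were taken as independent and not matched by mouse. The shares are built from the same levels as the tests of single factors, so they are not separate support for those differences. That of Sox4 also depends on the level of Sox9. From summed log2 values in place of linear ones, the Sox4 difference was -5.87 percentage points with an adjusted p of 0.0794 from the same permutation test. Gfi1b and Runx1 were the only listed genes of their families, so no share could be computed for them.

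**Figure D3:**
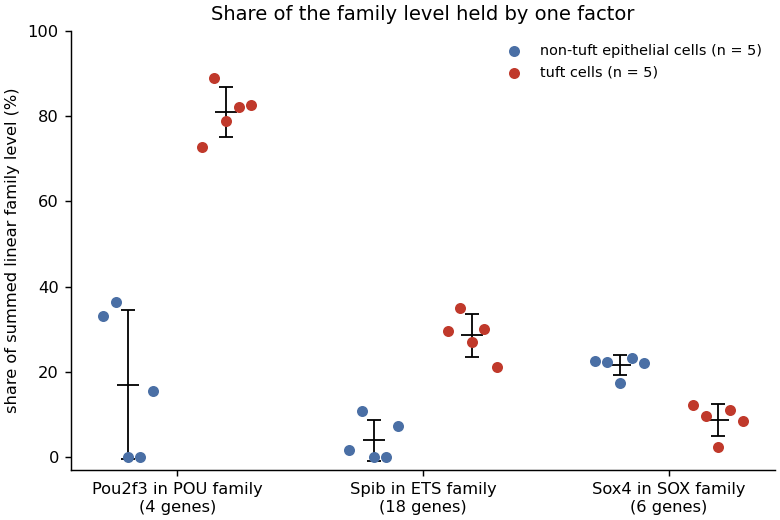
The plot of family shares gives the percentage of the summed linear family level (vertical axis) held by Pou2f3, Spib and Sox4 in each non-tuft (blue) and tuft cell (red) library, with the mean ± SD as black bars. Tuft cells lie above all non-tuft libraries for Pou2f3 and Spib, at means of 81.1% and 28.5%, and below them for Sox4, at 8.70% against 21.5%.

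The relatives and partners of the 5 factors were examined next. Of 6 other listed POU factors and cofactors only 1810046K07Rik was called, where 8.31% of all listed genes were called in either direction. Of 10 GFI corepressors and relatives, 17 other ETS factors, 5 other SOX factors and 9 RUNX partners and relatives, limma called 0. At an adjusted p under 0.05 with no fold threshold, which 11.7% of all genes met, limma counted 1 POU, 1 GFI, 2 ETS, 0 SOX and 0 RUNX genes. The median log2 fold changes of these lists were 0.42, 0.12, -0.03, 0.51 and -0.05, and that of all genes was 0.02. The genes under the fold threshold were Hdac1, a deacetylase of the Gfi1b corepressor complex, with a log2 fold change of 1.89 (limma adjusted p = 0.0413), and the ETS factors Elf4 (1.77, limma adjusted p = 0.0278) and Ehf (1.27, limma adjusted p = 0.0369), all named after their values were seen, as are the next 3 genes. Kdm1a and Rcor1, the demethylase and scaffold that Gfi1b recruits, had differences of -0.04 and -0.0030, and Cbfb, the partner that Runx1 needs to bind DNA, one of -0.05. After centring on ribosomal protein genes the counts called were 2 for the POU, 1 for the GFI and 2 for the ETS list.

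**Figure D4:**
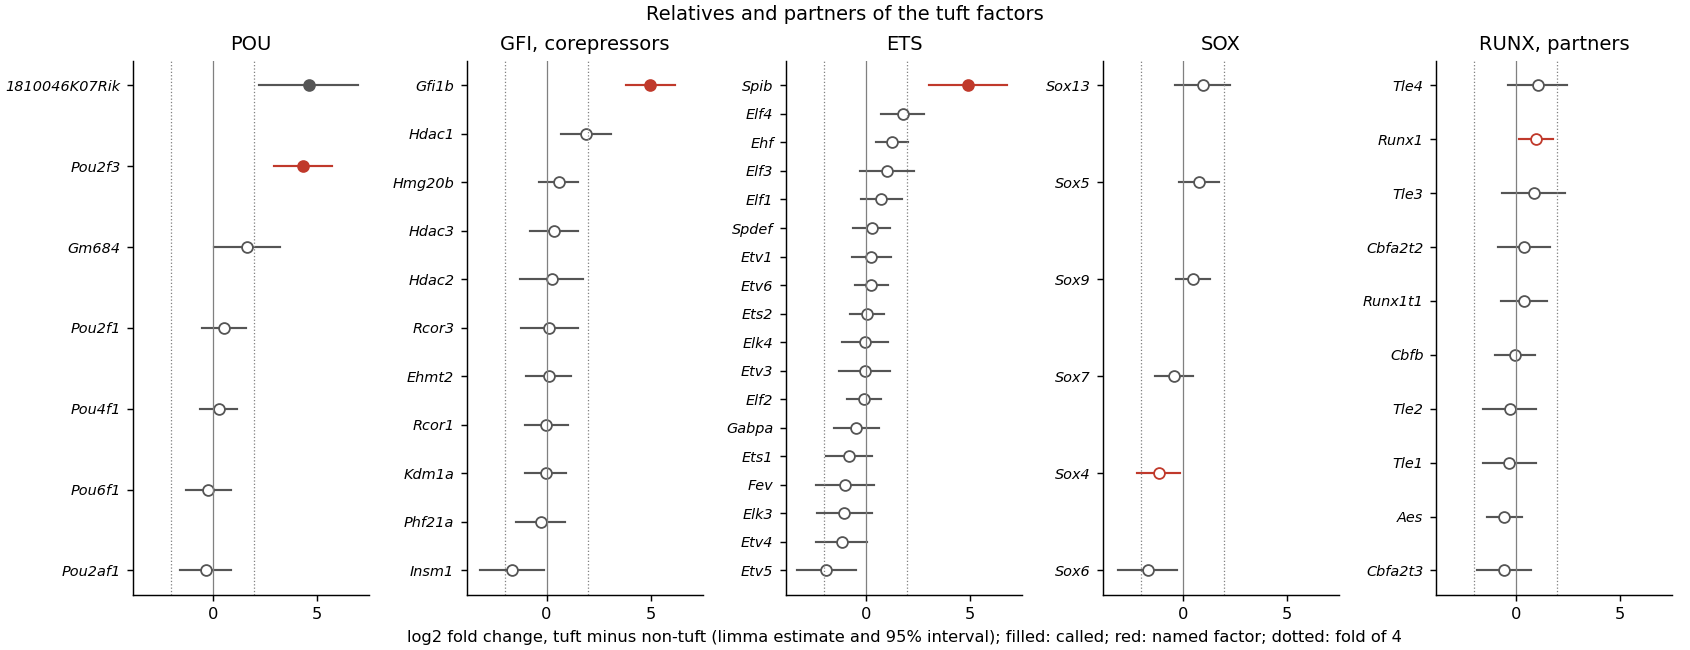
The interval plot gives the log2 fold change of tuft over non-tuft cells (horizontal axis) with its 95% interval for every listed gene of the POU, GFI, ETS, SOX and RUNX lists, with the 5 factors in red, called genes filled and a fold of 4 dotted. Pou2f3, 1810046K07Rik, Gfi1b and Spib, at 4.33 to 4.99, stand apart from the other relatives, all of which are between -1.90 and 1.89.

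1810046K07Rik is the mouse gene of Pou2af2, a coactivator of Pou2f3, and lies beside Gm684, matched here to Pou2af3, and Pou2af1 on chromosome 9. In NCBIM37 Pou2af1 spans 51021795 to 51048184, Gm684 spans 51078656 to 51080522 and 1810046K07Rik spans 51097791 to 51137022. The log2 value of 1810046K07Rik was 5.65, 6.70, 6.97, 7.22 and 7.02 in tuft cell libraries 1 to 5, and 0, 6.18, 0, 0 and 4.31 in non-tuft libraries 1 to 5. Non-tuft library 2 lay within the tuft cell range and the other 4 lay below it, with 3 at the floor. The log2 fold change was 4.61 (SE 1.10, limma adjusted p = 0.0151). Gm684 was at 3.31 to 4.86 in tuft cells and at 0 to 4.16 in non-tuft cells, a log2 fold change of 1.65 (limma adjusted p = 0.176). Pou2af1, the B cell coactivator of octamer-binding factors, was at the floor in 4 tuft cell libraries and had a difference of -0.35 (limma adjusted p = 0.750), which was 0.47 after centring on ribosomal protein genes. The upstream stretch of the first 1810046K07Rik start, chosen after its values were seen, holds the octamer letters on both strands, from -86 to -80 and from -54 to -48 (chr9:51328919-51329168, minus strand of GRCm38.p6).
1810046K07Rik: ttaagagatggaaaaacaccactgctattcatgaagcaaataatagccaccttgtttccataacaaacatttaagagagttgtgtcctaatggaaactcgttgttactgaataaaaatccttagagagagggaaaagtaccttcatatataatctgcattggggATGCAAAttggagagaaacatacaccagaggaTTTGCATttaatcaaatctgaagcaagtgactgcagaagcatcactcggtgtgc

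In all, 12 windows were searched, 5 of them of the factors and 7 of 1810046K07Rik, Gm684, Ascl2, Hmx2 and Hmx3, and the octamer letters were in 2. The windows of Gm684 and Ascl2 held none of the motifs, and those of Hmx2 and Hmx3 held RUNX, ETS or GFI letters. These matches stand against the frequency of the same letters in all 32851 RefSeq promoter windows of that length. The octamer letters were found in 4.63% of the windows, the GFI letters in 14.0%, the ETS letters in 28.3%, the RUNX letters in 16.8% and the SOX letters in 5.85%. The Gfi1b match is thus to letters that its own family binds, and the window of the upstream Runx1 start holds the RUNX letters on the other strand at 28 to 33 and at 36 to 41. Sox4 holds the ETS letters from -72 to -67. These counts are descriptions of the windows, and binding was not measured.

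**Figure D5:**
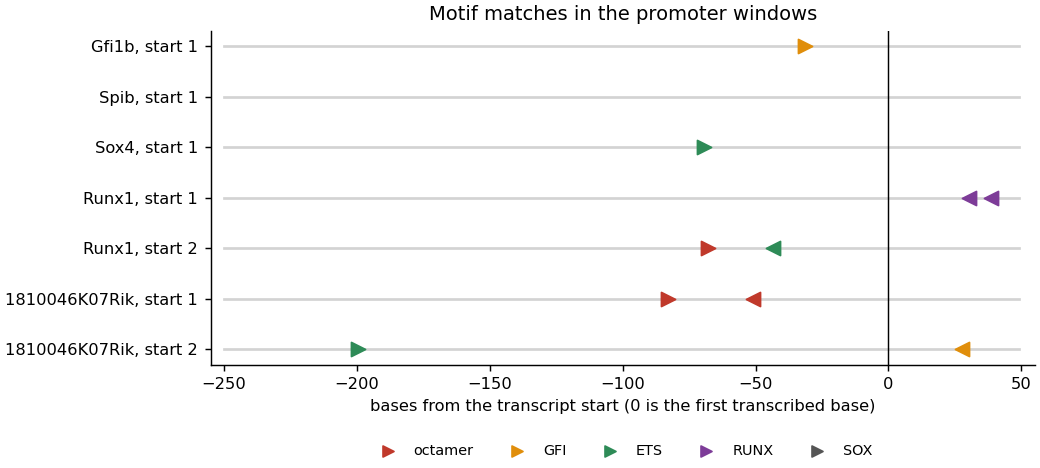
The motif map gives the position of each match (triangles, pointing right for the transcribed strand and left for the other strand, coloured by motif) in bases from the transcript start (horizontal axis) for 7 of the 12 promoter windows searched. Octamer matches lie in the windows of Runx1 start 2, from -71 to -65, and 1810046K07Rik start 1, and the Spib window holds no match.

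Other regulators named for tuft cell fate in the gut or airway were examined as a list. Of 14 other listed tuft regulators 5 were called higher and 0 lower, where 4.32% and 3.99% of all listed genes were, and their median log2 difference was 1.29. The basic helix-loop-helix factor Ascl2 was at 6.16 to 7.25 in tuft cells and, apart from library 2 at its floor, at 4.19 to 5.00 in non-tuft cells, a log2 fold change of 3.15 (limma adjusted p = 0.0181). The neighbouring homeobox genes Hmx2 and Hmx3 had log2 fold changes of 4.15 (limma adjusted p = 0.00215) and 3.08 (limma adjusted p = 0.00286), and Hmx2 was also high in non-tuft library 2, at 4.14. Hnf4a, named after its values were seen, passed narrowly at 2.03 (limma adjusted p = 0.0496). For Hnf4a, non-tuft library 1, at 6.19, lay within the tuft cell range of 5.30 to 6.62, and the other non-tuft libraries lay below it. The remaining called regulator is 1810046K07Rik. With non-tuft library 2 left out, 4 of the 14 were called. Atoh1 and Gfi1 had no row. Sox9 was at 7.77 ± 0.28 (SD, n = 5) in tuft and 7.26 ± 0.49 (SD, n = 5) in non-tuft cells, and did not pass the test (limma adjusted p = 0.451).

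Because 3 of the 5 factors also act in blood cells, a list of blood lineage factors was examined. Of 32 genes 17 were listed, 1 was called higher and 1 lower, and the median log2 fold change was -0.08. These 2 of 17 stand beside the 8.31% of all listed genes called. Myb, a factor of blood progenitors that is also used by epithelial progenitors, was at 3.98, 2.68, 2.91, 3.35 and 3.31 in tuft cell libraries 1 to 5 and at most 1.68 in non-tuft libraries, a log2 fold change of 2.44 (limma adjusted p = 0.00332). Hhex, a homeobox factor of the ventral pancreas and of blood precursors, fell by 2.74 on the log2 scale (limma adjusted p = 0.00136) and was above all tuft cell libraries in every non-tuft library. After ribosomal centring the Hhex difference was -1.92, under the fold threshold, and Myb and Nfe2 were the called genes of the list. Gata1, Gata2, Tal1, Spi1, Ikzf1 and Pax5 had no row and were not analysed here.

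The genes whose pattern over the 10 libraries was most like each factor were named by the root mean square (RMS) difference of their log2 values after each gene was centred on its own mean. For Pou2f3 these were the microtubule protein gene Map2, at an RMS difference of 0.28, Pik3r5 (0.50), a regulatory subunit of a phosphoinositide kinase, and the phosphodiesterase gene Pde2a (0.67). For Spib they were the taste transduction channel gene Trpm5 (0.33), Vav1 (0.48) and Avil (0.51). For Gfi1b they were 1700016C15Rik (0.51), Il17rb (0.52), which encodes a receptor of IL-25, and Wnt5a (0.56). The 3 sets had no gene in common. Since the measure includes the gap between the groups, genes near a called factor are bound to differ between them, and the library values below describe the selection. Trpm5, Vav1, Avil and Il17rb also belong to the tuft marker list. Map2 was at 3.63, 2.81, 0.30, 0 and 0.45 in non-tuft libraries 1 to 5, and shared with Pou2f3 the higher level in libraries 1 and 2. Trpm5 was at 2.49, 4.32, 0, 0 and 4.31 in the same libraries, with the higher level in libraries 2 and 5 that was seen for Spib. 1700016C15Rik was above the floor in non-tuft library 5 alone, at 2.69, as was Il17rb at 1.99. For Sox4 the nearest genes were Rps20 (0.28), Rpl31 (0.29) and Tnrc6a (0.31), and for Runx1 they were Mpc2 (0.18), Timm13 (0.20) and D8Ertd738e (0.21), none of which was called. When levels were not centred, 3 of the 3 nearest genes of Pou2f3 were kept, 2 of Spib, 1 of Gfi1b and 0 of Sox4 and Runx1.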

How the data were processed

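Expression had been measured in 5 tuft cell and 5 non-tuft libraries, grouped by their titles. The authors aligned single-end reads of 50 bp with HISAT2 (genome mm9), quantified RPKM with StringTie, removed genes with an RPKM variance under 1, and deposited quantile normalized log2(RPKM + 1) values for 12160 genes. The authors' fold ratio and p-value columns for their own comparison were not used. The depth of each library is unknown, so no counting intervals are given. Dates replace the symbols of 18 entries.

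All listed genes were fitted with limma 3.58.1 in R 4.3.3 (lmFit and eBayes, no covariates, Benjamini-Hochberg over all genes), after a test on simulated data. Single values and family shares were compared by exact permutation over 252 arrangements in Python 3.11.15, with no pairing by mouse. Family shares used linear values above each library's floor. Positions came from NCBIM37 (all 5 factors and 47 of 50 named genes matched) and promoters from RefSeq GRCm38.p6, named separately and never combined.

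The 5 factors and the 16 gene lists were chosen with earlier results of these data known. Genes named are the 5 factors, the 3 genes most like each, up to 4 called genes of each regulator list, the most abundant markers of each cell type list, the sort markers and the regulators Ascl2, Sox9 and Pou2af1 to Pou2af3. Any other is said to be named after its values were seen, as are, within marker lists, those given only by their call. Alternatives were the replicate number as a block, 0.1 or 10 added in place of 1, a minimum mean log2 value of 2, centring on 77 ribosomal genes, another floor, other eBayes settings, other fold thresholds and each library left out. Lists without non-tuft library 2, shares after ribosomal centring and treat for each factor were added after seeing the data.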

Additional observations from a re-analysis of the deposited data

Results flagged for a closer look

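Values that stood far from the other 4 libraries of their group are given here without explanation. Of 106 groups examined 17 held such a value, where chance gives about 5% for continuous values. In 11 of the 17, 3 or more libraries of the group were at the floor, so that any other value stands apart and the 5% does not apply, and 3 are genes chosen for their likeness to Gfi1b. Non-tuft library 5 held 7 of them, all high: Gfi1b at 2.61, its 3 nearest genes 1700016C15Rik at 2.69, Il17rb at 1.99 and Wnt5a at 2.44, the B cell genes Cd79b at 6.22 and Pou2af1 at 2.71, and the acinar gene Ctrb1 at 15.7, all on the log2(RPKM + 1) scale.

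Non-tuft library 2 held 4 of them, with Hmx2 at 4.14 and Siglecf at 1.61 above the other non-tuft libraries, Ascl2 below them at its floor of 0.17, and Tek at the same floor, which lies above the 0 of the other libraries. Non-tuft library 1 was high in the platelet gene Pf4, at 1.70, and low in the immediate early gene Ier2, at 5.90. The Sox4 share of the SOX level was lowest in non-tuft library 3, at 17.4%. Among tuft cell libraries, library 2 was high in Pik3r5, at 6.05, and low in Cd79b, at 0, and library 4 was the only one with Pou2af1 above the floor, at 1.53.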

How the results depend on the processing

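Pou2f3, Gfi1b and Spib were called higher under every alternative except limma's treat, which tests against the fold of 4 and was added for single factors after seeing the data. There Gfi1b remained called, and Pou2f3 (log2 fold change 4.33, adjusted p = 0.127) and Spib (4.93, adjusted p = 0.171) were not. With a library left out, their log2 fold changes ran from 3.98 to 4.76, 4.83 to 5.51 and 4.38 to 5.56, and over the other alternatives from 2.31 to 5.89, 2.37 to 7.47 and 3.16 to 6.34, with both ends set by the added constant. With a library left out, Sox4 (-1.38 to -0.83, adjusted p 0.0934 to 0.277, limma) and Runx1 (0.83 to 1.08, adjusted p 0.0862 to 0.222, limma) stayed uncalled. Over the other alternatives Sox4 ran from -1.22 to -0.34 and Runx1 from 0.40 to 1.80, and both stayed uncalled. Runx1 passed the adjusted p after ribosomal centring alone, at 1.80, under the fold threshold. The number of genes called, 1010 in the fit described, was 278 with 10 added, 105 with limma's treat, 841 to 1010 with a library left out, and 1570 after ribosomal centring, when 85.7% of calls were higher against 52.0%. That centring also gave 8 called tuft regulators and 2, 1 and 2 called genes in the POU, GFI and ETS lists. The Sox4 share was -5.87 percentage points from summed log2 values. Same-numbered libraries had correlated deviations of 0.079 to 0.24, over 0.1 in 3 of 5 pairs, and 4 tuft cell and 3 non-tuft libraries correlated best with their own number. The replicate block gave 1009 called genes, changed no call among the 5 factors (adjusted p 0.00255, 0.00137, 0.00720, 0.126 and 0.113 from limma for Pou2f3, Gfi1b, Spib, Sox4 and Runx1) and changed 4 of 45 other named genes, with Reg1, Tff2 and Kit no longer under an adjusted p of 0.05 and Cd14 newly under it. Both groups came from 5 mice, and the sources used here do not state that a number marks one mouse. Of 762 refits of those 45 genes, 699 kept their direction and side of the threshold. Directions turned in 8, all in uncalled genes: Gp1bb at 0.58, Ier2 at 0.16 and Pou2af1 at 0.47 after centring, Gp1bb at 0.12 and 0.029 without non-tuft library 1 or tuft cell library 5, Hspa8 at -0.035 and -0.050 without non-tuft library 4 or tuft cell library 5, and Pou2af1 at 0.16 without non-tuft library 5. With a library left out these genes reached -0.56 for Gp1bb, 0.37 for Hspa8 and -0.65 for Pou2af1. The causes were not tested.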
